A study of Mus musculus with 8 samples.

Results

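The KRAB zinc finger cluster regions are H3.3-HA peaks in spans of 4 mouse chromosomes that hold clusters of C2H2 zinc finger genes. A peak belonged to them when its midpoint lay in chr4:145000001-148000000, chr13:61000001-68000000, chr12:18000001-25000000 or chr2:174500001-178000000 (mm9). Of the 75040 peaks in 4 peak lists, 1260 met this rule. They comprised 489 of 22730 peaks in WT (wild type) mESCs (mouse embryonic stem cells) at day 0, 517 of 17706 in Hira-null mESCs at day 0, 83 of 27272 in WT cells at day 15 and 171 of 7332 in Hira-null cells at day 15. The spans were chosen because peaks were seen to crowd there in these same lists, so the number and density of the peaks describe that choice and were not tested.

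All cells carried HA-tagged H3.3, a histone H3 variant that can enter nucleosomes without DNA replication, and chromatin cut with micrococcal nuclease was precipitated through the tag. WT cells were the W9.5 line, and Hira-null cells, which lack the H3.3 chaperone HIRA, were a single clone (Clone104). Both lines were sampled undifferentiated (day 0) and after differentiation towards cardiomyocytes (day 15), when the cultures were mixed. A condition was represented by a single ChIP library, with an input library beside it, so no difference between conditions could be tested. The depth of the libraries is unknown here. The score of a peak is -10 times the log10 of the peak caller's p-value, and scores and peak numbers both grow with depth. Scores were therefore ranked only within a list, with 1 exception. The strongest region in all 4 lists was picked by the lowest of its 4 scores, so that choice depends on depth. Peaks lay at 8, 5, 2 and 1 of 10 mESC genes and 3, 1, 4 and 2 of 10 cardiomyocyte genes in the WT day 0, Hira-null day 0, WT day 15 and Hira-null day 15 lists, where 33.6%, 18.9%, 37.1% and 13.3% of all protein-coding genes had one. The cardiomyocyte counts lay near those shares and do not check the day 15 label. Among the mESC genes, Dppa2, Pou5f1 and Sox2 had a peak in WT day 0 cells and in no other list. Tdgf1 and Zfp42 had one in both day 0 lists alone. Nanog and Tet1 had one in both day 0 lists and in WT day 15 cells, and Esrrb in both day 0 lists and in Hira-null day 15 cells. A peak at Hira says nothing of the deletion, and the Hira gene carried 0, 2, 3 and 2 peaks in the same order.

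KRAB zinc finger proteins bind DNA through a row of C2H2 fingers, many of them at transposable elements, and recruit the corepressor TRIM28 through their KRAB domain. TRIM28 in turn brings SETDB1, which methylates histone H3 and silences the target. The genes multiplied by tandem duplication, so neighbours are nearly alike in sequence, and the last exons that encode the fingers are a known site of heterochromatin marks inside otherwise ordinary genes. HIRA is known mainly for H3.3 at active genes, whereas ATRX and DAXX place H3.3 at heterochromatin and repeats.

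The label was checked against sequence. Of 210 protein-coding genes with their midpoint in the spans, 95 encoded at least 3 C2H2 fingers and 43 of these also held a KRAB pattern. The chromosome 4 span had 18 zinc finger genes, of which 18 had the KRAB pattern, chromosome 13 had 37 and 18, and chromosome 2 had 39 and 6. The chromosome 12 span had 1 zinc finger gene by this rule, 5730507C01Rik, among 22 protein-coding genes, and by this count alone it went against the label. Because the annotation could miss such genes, runs of at least 3 C2H2 fingers in 1 reading frame were also searched for directly in the mm9 sequence, without regard to genes or peaks, and are called zinc finger arrays. The genome held 790 arrays and the spans 230, with 29 on chromosome 4, 85 on chromosome 13, 51 on chromosome 12 and 65 on chromosome 2. Of the 51 arrays on chromosome 12, 37 lay in no annotated gene, 12 in introns and 2 in exons of protein-coding genes. These genes were 5730507C01Rik and Zfp125, and Zfp125 had not met the gene rule above. This span was thus a zinc finger cluster by its sequence. The search did not look for the KRAB domain, so it does not bear on the KRAB part of the label. The KRAB pattern was found in 1 zinc finger gene on chromosome 12 and in 6 of 39 on chromosome 2. That part of the label was thus not shown for the spans of chromosomes 12 and 2 as a whole. An array had a median of 11 fingers (3 to 30) and 903.0 bp.

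The arrays are shown here by 3 consecutive fingers (231 bases) on the coding strand, with the codons of the 2 cysteines and 2 histidines that hold the zinc ion in capitals. For chromosomes 13, 12 and 4, the sequence comes from the array under the strongest region with a peak in all 4 lists, that is, the region whose lowest score of the 4 was highest. The chromosome 2 array had the most fingers of those with no peak in any list, and is shown as a contrast.
Chromosome 13, chr13:62150487-62150717, plus strand, no annotated gene, first 3 of 22 fingers: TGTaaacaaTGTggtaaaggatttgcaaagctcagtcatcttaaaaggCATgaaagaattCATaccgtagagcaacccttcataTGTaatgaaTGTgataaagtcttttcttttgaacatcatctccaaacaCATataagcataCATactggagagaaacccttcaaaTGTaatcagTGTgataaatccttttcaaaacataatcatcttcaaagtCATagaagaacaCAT
Chromosome 12, chr12:18411733-18411963, plus strand, no annotated gene, first 3 of 15 fingers: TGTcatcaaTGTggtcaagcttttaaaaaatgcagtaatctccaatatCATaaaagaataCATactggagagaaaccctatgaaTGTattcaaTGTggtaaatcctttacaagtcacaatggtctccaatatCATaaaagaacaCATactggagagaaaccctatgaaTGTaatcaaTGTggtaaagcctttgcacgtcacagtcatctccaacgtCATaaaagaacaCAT
Chromosome 4, chr4:146553000-146553230, plus strand, exon of Gm13139, first 3 of 11 fingers: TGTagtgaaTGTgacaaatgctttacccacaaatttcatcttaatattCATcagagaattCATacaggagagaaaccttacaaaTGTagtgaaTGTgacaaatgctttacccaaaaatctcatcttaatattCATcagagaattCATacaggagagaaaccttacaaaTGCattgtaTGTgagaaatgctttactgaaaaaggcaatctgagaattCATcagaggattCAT
Chromosome 2, chr2:176593736-176593966, plus strand, exon of Gm14295, first 3 of 25 fingers: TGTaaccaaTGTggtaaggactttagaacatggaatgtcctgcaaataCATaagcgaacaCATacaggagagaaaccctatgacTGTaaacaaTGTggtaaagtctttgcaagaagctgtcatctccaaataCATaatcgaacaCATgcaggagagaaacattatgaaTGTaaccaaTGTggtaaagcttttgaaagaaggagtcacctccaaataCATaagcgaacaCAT
The reference sequence is mm9 (NCBIM37). The chromosome 4 stretch was the most distant, with 61% to 66.2% of bases identical to the others. The array without a peak shared 61% to 75.3% of bases with those under peaks, and those shared 62.3% to 74% with each other. The linker between fingers (ACNGGNGANAANCC on the coding strand) was present in 222 of 230 arrays of the spans (96.5%), with all 65 of chromosome 2 among them.

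The spans held 19.8 Mb of sequence, 0.774% of the genome, and 2.15% of WT day 0 peaks, 2.92% of Hira-null day 0 peaks, 0.304% of WT day 15 peaks and 2.33% of Hira-null day 15 peaks. Peaks per Mb were 2.82, 3.86 and 3.06 times those of the rest of the genome in WT day 0, Hira-null day 0 and Hira-null day 15 cells, and 0.391 times in WT day 15 cells. WT day 15 was thus the list in which the spans were poorer in peaks than the rest of the genome. In 14 windows of 1 Mb elsewhere that held at least 10 arrays each, which the rule did not choose, the corresponding values were 2.02, 2.65, 2.84 and 0.774. The WT day 15 values depended on the reference. Against the rest of the autosomes without chromosomes 8 and 11, they were 0.495 in the spans and 0.979 in the windows. In the same order, the other lists then had 3, 3.73 and 2.9 in the spans and 2.15, 2.56 and 2.68 in the windows. At the borders of the spans, the nearest peaks inside and outside lay 2.83 and 1.73 kb from the start of the chromosome 4 span (scores 153.4 and 127.4) and 4.75 and 27.6 kb from its end (91.5 and 275.1). For chromosome 13 they lay 51.5 and 131.7 kb from the start and 41.5 and 10.3 kb from the end, for chromosome 12 at 33.1 and 27.6 kb and 3.79 and 22.5 kb, and for chromosome 2 at 310.5 and 153.3 kb and 86 and 245.7 kb.

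The map of peaks and arrays along the spans shows how each list was laid out.

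**Figure D1:**
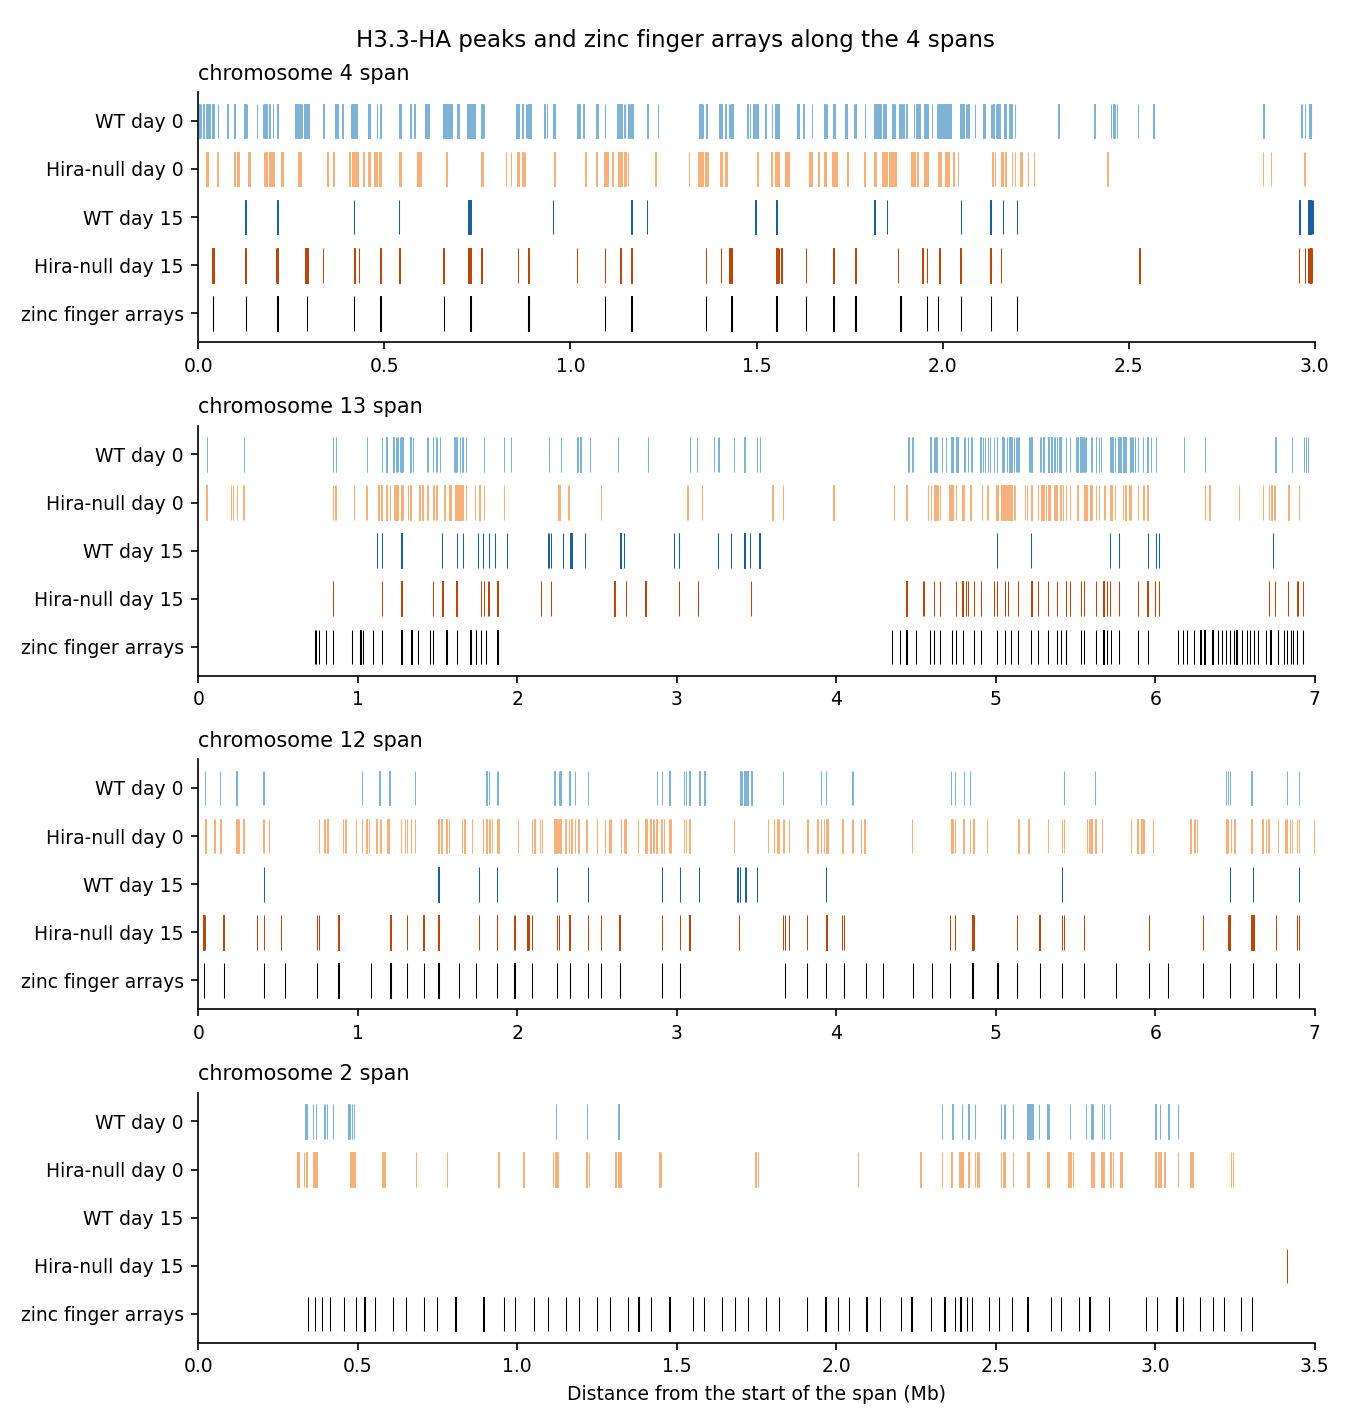
Peaks of the 4 lists (coloured bars) and zinc finger arrays (black) along each span, by distance from the start of the span in Mb, with thin bars drawn at a minimum width. Most day 0 peaks lie off arrays, 91 of 171 Hira-null day 15 peaks lie on arrays of chromosomes 4, 13 and 12, and the chromosome 2 span holds 0 WT and 1 Hira-null day 15 peaks.

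At day 0, the chromosome 4 span held 205 WT and 94 Hira-null peaks, and 24 and 48 at day 15. The order of the genotypes thus differed between the days. WT day 0 peaks covered 431.8 kb of this span, or 15.4% of its bases, and Hira-null day 0 peaks 353.8 kb (12.6%), so fewer but wider Hira-null peaks covered nearly as much. On chromosome 13 the counts were 179 WT and 166 Hira-null peaks at day 0 and 39 and 62 at day 15. Chromosome 12 held 59 WT and 190 Hira-null peaks at day 0 and 20 and 60 at day 15, with 58.4 and 319.3 kb covered at day 0 and 19 and 91.4 kb at day 15. The Hira-null list had over 3 times as many peaks as WT there at day 0 and 3 times as many at day 15. This order did not hold among peaks made mainly of sequence found once in the genome, which are counted below. Chromosome 2 held 46 WT and 67 Hira-null peaks at day 0 and 0 and 1 at day 15. The single Hira-null peak there (chr2:177913657-177914349) lay in Phactr3, off the arrays, whereas each other span held peaks of both day 15 lists.

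**Figure D2:**
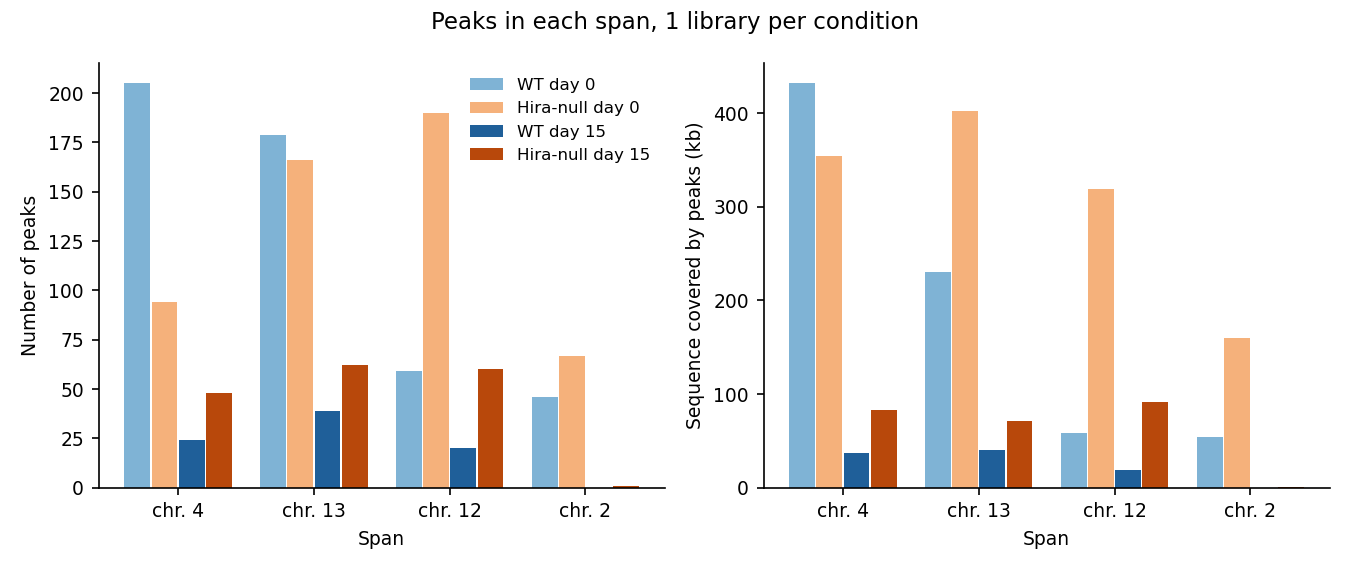
Number of peaks (left) and kb covered (right) in each span for the 4 lists, 1 library each, so no error bars. Chromosome 4 has the most WT day 0 peaks (205), chromosome 12 the most Hira-null day 0 peaks (190), and chromosome 2 has 0 and 1 peaks at day 15.

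Over all spans, peaks covered 774.6 kb in WT day 0, 1235.2 kb in Hira-null day 0, 96.7 kb in WT day 15 and 246.5 kb in Hira-null day 15 cells. Hira-null day 0 peaks were the widest, with a median of 1792.0 bp against 1506.0 bp in the rest of that list. The medians were 1109.0 bp inside and 1044.0 bp outside in WT day 0, 969.0 and 952.0 bp in WT day 15, and 1099.0 and 771.0 bp in Hira-null day 15 cells. Peaks of at least 4 kb numbered 31, 66, 1 and 2 in the WT day 0, Hira-null day 0, WT day 15 and Hira-null day 15 lists. The median score of Hira-null day 15 peaks was 178.6 in the spans and 91.1 in the rest of that list, whereas in the other lists the medians inside and outside were 85.7 and 80.2, 123.1 and 122.1, and 87.8 and 86.7.

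Most peaks in these regions consisted mainly of repeated sequence, but WT day 15 peaks were divided, with 42 of 83 at 50% or more and 41 below. A peak's repeated share is the part of its 31-base words found at 2 or more places in the genome, and its median was 85.2%, 87.6%, 51.3% and 87.8% in the WT day 0, Hira-null day 0, WT day 15 and Hira-null day 15 lists, against 2.95%, 45.5%, 0.148% and 8.51% in the rest of each list. Over the whole spans, peaks or not, 63.9% of words were repeated, from 41.6% on chromosome 13 to 81.3% on chromosome 2. How the authors placed reads that match several copies is not given in the sources used here. A peak may therefore stand for a near-identical copy next to it. With only the peaks whose repeated share was under 50%, 107 WT and 54 Hira-null peaks remained at day 0 and 41 and 32 at day 15, so that WT had the larger number on both days, while with all peaks Hira-null did. The covered length behaved likewise, with 145.8 and 134.0 kb at day 0 and 38.8 and 29.1 kb at day 15. On chromosome 12, 17 WT and 9 Hira-null peaks remained at day 0 and 7 and 3 at day 15. WT also had the larger number in the other spans, except at day 15 on chromosomes 4 (11 and 12) and 2 (0 and 1). Elsewhere in the genome the same limit left 19155 WT and 9122 Hira-null peaks at day 0 and 26634 and 5712 at day 15. WT thus had the larger number there too. The larger Hira-null totals of the spans were not kept under this limit, and the part of list length in this was not tested.

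Overlap between lists asks whether the genotypes or days used the same places. At day 0, 221 of 489 WT peaks of the spans were overlapped by a Hira-null peak (45.2%, 95% interval 40.7 to 49.7), where 27.3% of all WT day 0 peaks were. In the other direction, 183 of 517 Hira-null peaks met a WT peak (35.4%, 31.3 to 39.7), with 32.8% over the whole list. At day 15, 42 of 83 WT peaks met a Hira-null peak (50.6%, 39.4 to 61.8), with 8.07% over the whole list, and 41 of 171 Hira-null peaks met a WT peak (24%, 17.8 to 31.1), with 30.8% over the whole list. The spans were chosen for their many peaks, and Hira-null peaks were 3.86 times as dense there as in the rest of the genome at day 0 and 3.06 times at day 15, so nothing is read from the distance between these shares and those of the whole lists. The exact intervals cover counting error over peaks only, and peaks on near-identical copies are not independent.

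Between days, 38 of 489 WT day 0 peaks met a WT day 15 peak (7.77%, 5.56 to 10.5), where 25.7% of all WT day 0 peaks did. Of the 83 WT day 15 peaks, 39 met a WT day 0 peak (47%, 35.9 to 58.3, with 22% over the whole list). Most WT day 0 peaks of the spans thus had no counterpart at day 15, while nearly as many WT day 15 peaks met a day 0 peak (39) as did not (44). In Hira-null cells, 63 of 517 day 0 peaks met a day 15 peak (12.2%, 9.49 to 15.3, with 9.25% over the whole list), and 69 of 171 day 15 peaks met a day 0 peak (40.4%, 32.9 to 48.1, with 23.5% over the whole list). No day 0 peak of the chromosome 2 span met a day 15 peak, 0 of 46 in WT and 0 of 67 in Hira-null cells, but that span held only 0 and 1 day 15 peaks. Peaks in the spans were 0.391 times as dense as in the rest of the genome in WT day 15 cells and 3.06 times in Hira-null day 15 cells. For this reason too, nothing is read from the distance between these shares and those of the whole lists.

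**Figure D3:**
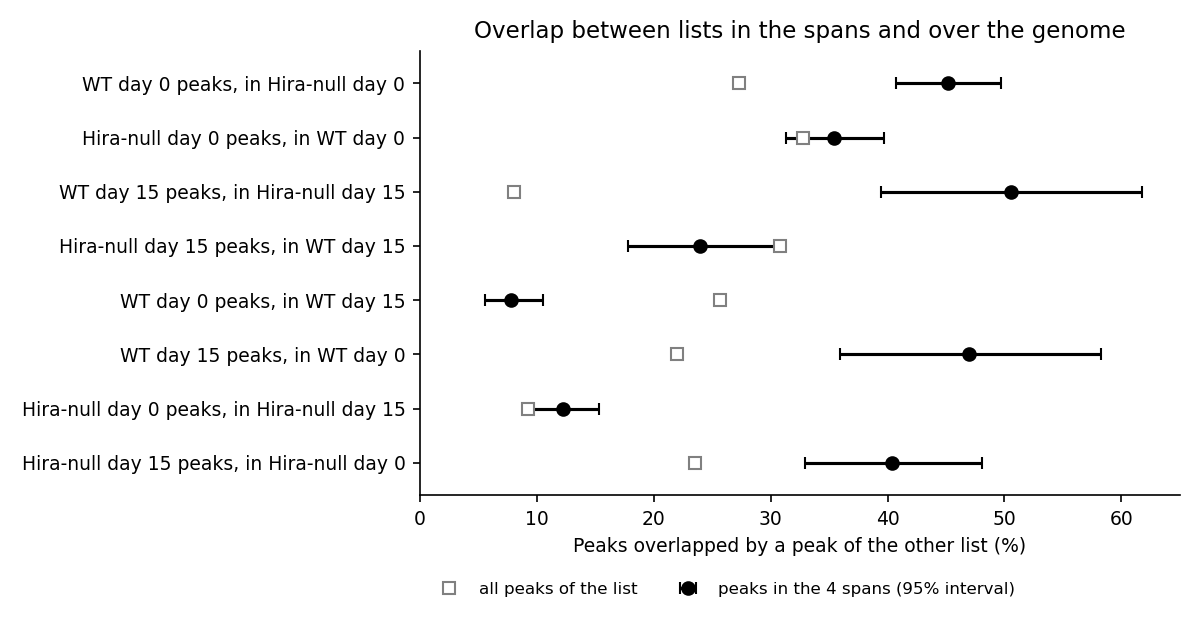
Share of peaks overlapped by at least 1 bp of a peak of the other list, for the peaks in the 4 spans (black circles, exact 95% intervals) and all peaks of the list (grey squares). WT day 15 peaks of the spans meet a Hira-null day 15 peak in 50.6% of cases (8.07% over the list), and WT day 0 peaks meet a WT day 15 peak in 7.77% (25.7%). The spans were chosen from the peaks of these lists, so nothing is read from the distance between circles and squares.

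Joined across lists, the peaks formed 887 separate regions, of which 316 had a peak in Hira-null day 0 cells alone, 231 in WT day 0 alone, 134 in both day 0 lists, 64 in Hira-null day 15 alone and 29 in WT day 15 alone. The regions with a peak in all 4 lists numbered 14, with 6 on chromosome 13, 5 on chromosome 12, 3 on chromosome 4 and 0 on chromosome 2. Of these 14 regions, 13 lay on a zinc finger array, against 2 of the 316 regions seen in Hira-null day 0 cells alone and 1 of the 231 seen in WT day 0 alone. The count was 4 of 134 in both day 0 lists, 1 of 29 in WT day 15 alone and 31 of 64 in Hira-null day 15 alone. It was 10 of 13 in WT day 0 and Hira-null day 15 only, so high shares were not limited to regions in all 4 lists. A joined region is at least as wide as each of its peaks, and the part of width was not tested. Over the 887 regions, 99 lay on an array (11.2%).

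The strongest region in all 4 lists was chr13:62148317-62152615, outside annotated genes, over the 22-finger array whose first fingers are printed above. At day 0 it scored 411.9 in WT and 945.1 in Hira-null cells, and at day 15 it scored 415.2 and 1525.8. It was the highest-scoring peak of the span in the Hira-null day 0 and WT day 15 lists. On chromosome 12 the strongest was chr12:18410868-18413421, also outside annotated genes, with scores of 124.6 (WT) and 129.0 (Hira-null) at day 0 and 124.5 and 1017.7 at day 15. On chromosome 4 it was chr4:146548884-146561637, over the finger-coding exon of Gm13139 and an exon of Gm16889, with 1412.2, 1459.6, 120.0 and 470.3, where the Hira-null day 0 peak spread over 12754 bp and the day 15 peaks over 2036 bp in WT and 2021 bp in Hira-null cells. Regions in all 4 lists also covered an array and an exon of Zfp808 (chr13:62270384-62276020), Zfp934 (chr13:62618656-62620417) and Zfp125 (chr12:20905447-20907879).

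The peaks that scored highest in single lists lay on and off arrays on both days. The highest WT day 0 peak of the spans (chr4:145290056-145293513, score 2006.5) lay on an array in Gm13242, where Gm17609 is also annotated, and a Hira-null day 15 peak, but no Hira-null day 0 peak, overlapped it. The highest on chromosome 13 in WT day 0 cells (chr13:66530278-66534776, score 1600.0) lay on an array in 2410141K09Rik and had the same pattern. In Hira-null day 0 cells, the highest-scoring peaks on chromosomes 4 (chr4:146838014-146848303, 1631.8), 12 (chr12:18242837-18248739, 691.5) and 2 (chr2:177160352-177164201, 772.0) lay off arrays, and none of these met a day 15 peak. The highest Hira-null day 15 peak (chr12:20247559-20251265, score 2697.4) lay on an array outside annotated genes, where WT day 15 cells had their own highest peak of the span (336.9) and neither day 0 list had a peak. The highest WT day 15 peak on chromosome 4 (chr4:147985791-147986892, score 190.1) lay off arrays in Masp2, with a WT day 0 and a Hira-null day 15 peak over it.

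Zinc finger arrays were then taken as the unit. In Hira-null day 15 cells, 96 of the 230 arrays of the spans lay under a peak (41.7%, 35.3 to 48.4), where 23.7% of the 790 arrays of the genome did. The counts were 53 in WT day 0 (23%, 17.8 to 29, with 15.3% over the genome), 45 in Hira-null day 0 (19.6%, 14.6 to 25.3, with 13.5%) and 28 in WT day 15 cells (12.2%, 8.24 to 17.1, with 6.71%). Hira-null day 15 cells, the shortest list, thus had the most arrays under a peak and WT day 15 cells, the longest list, the fewest. The day 15 count was below the day 0 count in WT and above it in Hira-null cells. The 560 arrays outside the spans, which played no part in the choice of the spans, kept this order, with 68 in WT day 0 (12.1%, 9.55 to 15.1), 62 in Hira-null day 0 (11.1%, 8.59 to 14), 25 in WT day 15 (4.46%, 2.91 to 6.52) and 91 in Hira-null day 15 cells (16.2%, 13.3 to 19.6). Of these, the 185 in the 14 windows with at least 10 arrays gave 18, 21, 4 and 33 in the same order of lists. Hira-null cells thus stood above WT cells at day 0 in those windows.

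The 4 spans did not behave alike. On chromosome 4, 25 of 29 arrays lay under a WT day 0 peak, 8 under a Hira-null day 0 peak, 9 under a WT day 15 peak and 24 under a Hira-null day 15 peak. WT day 0 and Hira-null day 15 cells were thus alike there, and 23 arrays were shared between these lists. On chromosome 12, the counts were 8, 9, 12 and 40 of 51 in the same order, so that Hira-null day 15 cells stood apart. On chromosome 13 they were 19, 25, 7 and 32 of 85. On chromosome 2 they were 1, 3, 0 and 0 of 65, and 0 of 65 allows a share of up to 5.52%. Without the chromosome 2 span the order of the lists was the same.

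**Figure D4:**
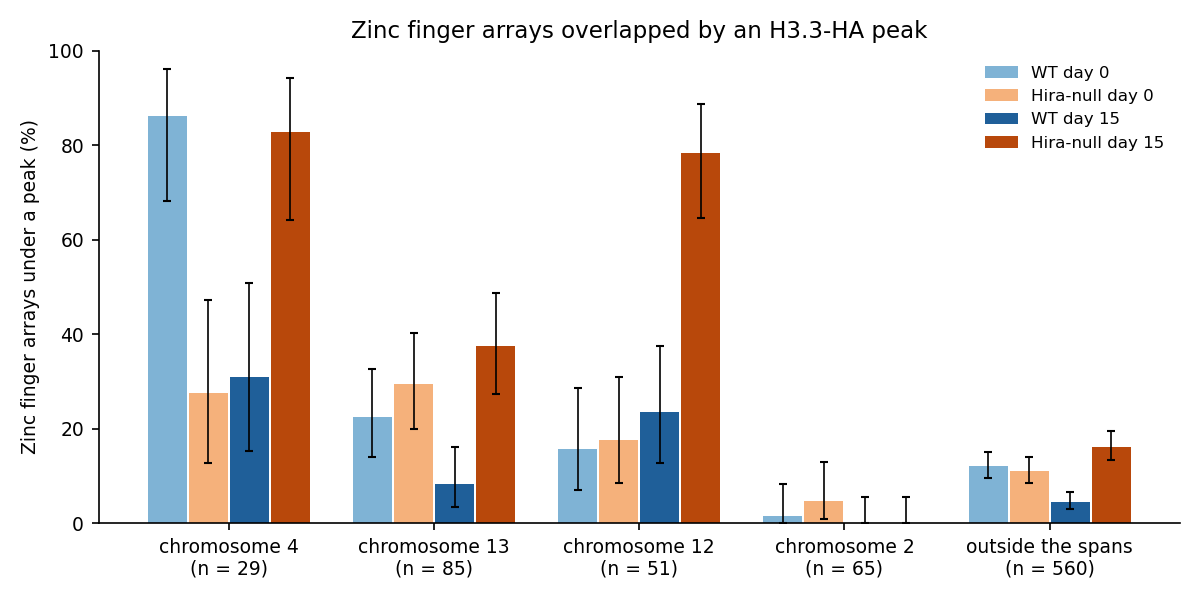
Share of zinc finger arrays overlapped by a peak, by span and in the rest of the genome, for the 4 lists (bars, exact 95% intervals over arrays). Hira-null day 15 reaches 82.8% on chromosome 4 and 78.4% on chromosome 12, while chromosome 2 stays at 4.62% or less in every list.

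Most arrays under a peak of another list also lay under a Hira-null day 15 peak. Of the 28 arrays under a WT day 15 peak, 27 also lay under a Hira-null day 15 peak, and of the 53 under a WT day 0 peak, 50 did, as did 37 of the 45 under a Hira-null day 0 peak. A further 33 arrays had a peak in Hira-null day 15 cells alone, of which 25 were on chromosome 12, 7 on chromosome 13 and 1 on chromosome 4. Arrays with a peak in a single other list were few, with 6 in Hira-null day 0, 1 in WT day 0 and 1 in WT day 15 cells. The day 0 lists were not nested in this way, since they had 29 arrays in common, while 24 lay under a WT but no Hira-null peak and 16 under a Hira-null but no WT peak. There were 124 arrays with no peak in any list, of which 62 were on chromosome 2 and 49 on chromosome 13.

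Seen from the peaks, 91 of 171 Hira-null day 15 peaks of the spans lay on an array (53.2%, 45.4 to 60.9), as did 29 of 83 in WT day 15 (34.9%, 24.8 to 46.2), 51 of 489 in WT day 0 (10.4%, 7.86 to 13.5) and 44 of 517 in Hira-null day 0 cells (8.51%, 6.25 to 11.3). In the rest of the genome these shares were 1.2%, 0.0883%, 0.31% and 0.32%. In the spans, a larger share of day 15 than of day 0 peaks thus lay on fingers in both genotypes, and most day 0 peaks lay off arrays. In the rest of the genome this held in Hira-null cells (1.2% and 0.32%) but not in WT cells (0.0883% and 0.31%). By number, on-array peaks of the spans fell from 51 at day 0 to 29 at day 15 in WT cells. They rose from 44 to 91 in Hira-null cells. On arrays, Hira-null day 15 peaks had a median width of 1856.0 bp and a median score of 295.7, against 821.0 bp and 83.5 off arrays. WT day 0 peaks had 1729.0 bp and 245.8 on arrays and 1076.5 bp and 81 off them. The corresponding WT day 15 values were 1140.0 bp and 97.5 on arrays and 889.5 bp and 82 off them.

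By bases, Hira-null day 15 peaks covered 83.6% of array sequence and 0.726% of all other sequence of the chromosome 12 span, 84.5% and 2.22% on chromosome 4, and 41.3% and 0.517% on chromosome 13. WT day 0 peaks covered 85% of array sequence and 14.8% of other sequence on chromosome 4, and 11.1% and 0.792% on chromosome 12. In bins of 1 kb around the array centres of chromosomes 4, 13 and 12, coverage by Hira-null day 15 peaks was 48.4% in the bin just before the centre and 0% to 4.82% in the bins at least 5 kb away on either side. The same bins gave 11.8% at the centre and 0% to 0.945% away from it for WT at day 15. At day 0 they gave 26% and 1.24% to 8.99% for WT, and 24.2% and 2.84% to 15.1% for Hira-null cells. On these 3 chromosomes the bin at the array thus stood above every bin at least 5 kb away in each list. On chromosome 2 this did not hold at day 0. The bin just before the centre there had 1.54% in WT and 2.45% in Hira-null cells. Bins at least 5 kb away reached 7.02% and 18.9%.

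**Figure D5:**
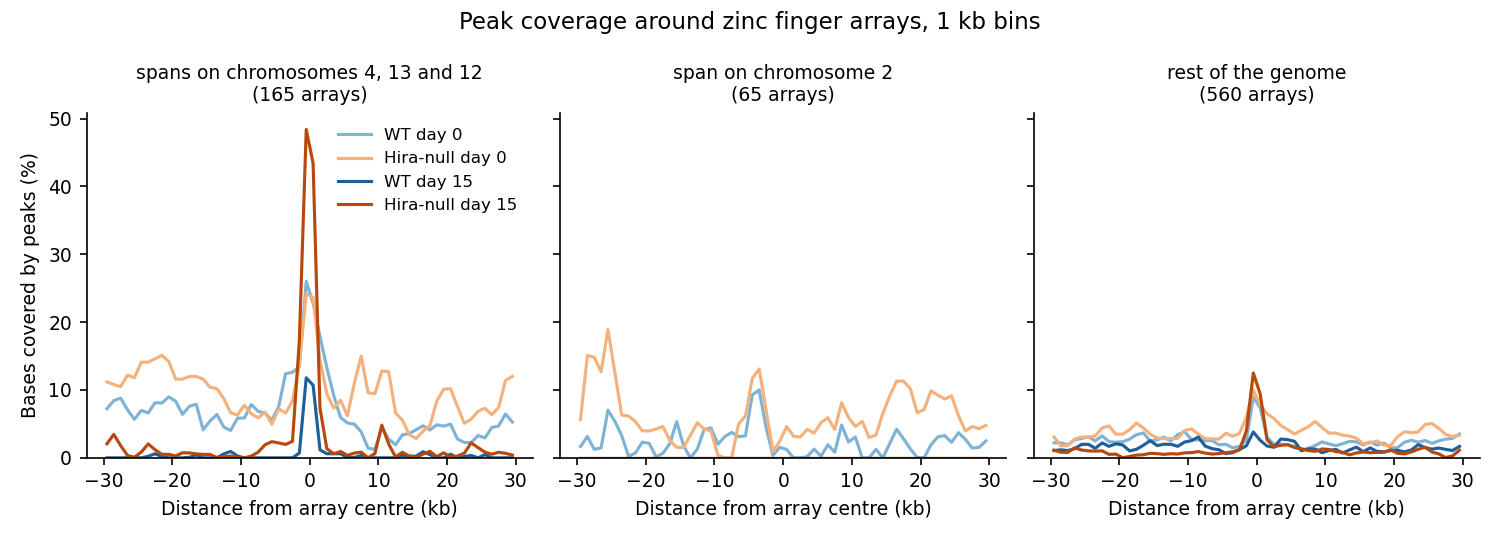
Percent of bases covered by peaks in 1 kb bins up to 30 kb before and after the centre of zinc finger arrays, oriented along the coding strand, for the 4 lists. On chromosomes 4, 13 and 12 (165 arrays) Hira-null day 15 peaks reach 48.4% at the array, on chromosome 2 (65 arrays) both day 15 lines stay at 0, and in the rest of the genome (560 arrays) the Hira-null day 15 line reaches 12.5%. Neither day 0 line is highest at the array on chromosome 2.

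Array length and repetition differed between arrays with and without a peak, but not in the same direction in every span. Over all spans, arrays with a peak in any list had a median of 13 fingers and those without had 9. On chromosome 2, the 3 arrays with a peak had a median of 3 fingers and those without had 11. The median share of repeated words was higher with a peak than without on chromosomes 4 (90.5% and 75.5%) and 13 (86.3% and 34%). It was lower with a peak on chromosomes 12 (92.8% and 100%) and 2 (97.2% and 100%). On chromosome 2 the arrays were as long as elsewhere (median 11 fingers), but their sequence was more repeated, with every word of the median array found at 2 or more places, against a median of 90.5% on chromosome 4, 93.1% on chromosome 12 and 58% on chromosome 13. Of the 58 arrays in which every word was repeated, 38 lay on chromosome 2, where 0 had a peak, and 20 on the other chromosomes, where 12 had a peak. Of the 40 arrays with under 50% repeated words, 5 had a peak, and 36 of these arrays lay on chromosome 13. The part that repetition plays in the low counts on chromosome 2 and in part of chromosome 13 was not tested. With only peaks of under 50% repeated words, 5, 1, 1 and 5 arrays remained under a peak in the WT day 0, Hira-null day 0, WT day 15 and Hira-null day 15 lists, so nearly all arrays counted above lay only under peaks of mostly repeated sequence.

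A sequence shared by the arrays under peaks was looked for after these values were seen. The 31-base word found under the most on-array Hira-null day 15 peaks of the spans was part of a finger, shown here with both cysteine codons in capitals.
Finger word, coding strand: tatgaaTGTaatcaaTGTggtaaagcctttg
It occurred under 59 of the 91 on-array Hira-null day 15 peaks. Its copies numbered 213 on chromosome 12, 86 on chromosome 13, 0 on chromosomes 4 and 2, and 41 in the rest of the genome. In the spans, 59 of the 72 arrays with the word lay under a Hira-null day 15 peak (81.9%) and 37 of the 158 without it (23.4%), but the word was chosen on these peaks. Outside the spans, where it was not chosen, 16 of 19 arrays with the word lay under a Hira-null day 15 peak (84.2%, 60.4 to 96.6) and 75 of 541 without it (13.9%, 11.1 to 17.1). The corresponding counts outside the spans were 8 of 19 and 60 of 541 in WT day 0, 8 of 19 and 54 of 541 in Hira-null day 0, and 4 of 19 and 21 of 541 in WT day 15 cells. Arrays with the word thus had a peak more often in each list, and most often in Hira-null day 15 cells. On chromosome 4, 24 of the 29 arrays had a Hira-null day 15 peak and 0 held the word. Arrays with near-identical fingers can share reads, inside and outside the spans, and are not independent. Over the 560 arrays outside the spans, the median share of repeated words was 3.88%. It was 35.3% in those with a peak in any list and 0.887% in those without. The word is itself repeated, so the comparison outside the spans cannot tell the word from repetition.

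Away from the arrays, Hira-null day 0 cells had 473 peaks in the spans. The word found under the most of these (37 peaks) was a dispersed repeat, with 68 copies in the spans and 4661 elsewhere, whose family was not looked up, since no repeat annotation was used. Of the 68 copies in the spans, 41 lay under a Hira-null day 0 peak (60.3%), 7 under a WT day 0 peak (10.3%) and 0 under a peak of either day 15 list. Elsewhere, 3651 of 4661 copies lay under a Hira-null day 0 peak (78.3%), 401 under a WT day 0 peak (8.6%), 1 under a WT day 15 peak and 10 under a Hira-null day 15 peak. Copies inside and outside the spans thus lay mainly under Hira-null day 0 peaks, but the word was chosen on Hira-null day 0 peaks of the spans.

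Peaks of the spans lay outside annotated genes in most cases except in WT day 15 cells, with 268 of 489 in WT day 0 (54.8%), 387 of 517 in Hira-null day 0 (74.9%), 38 of 83 in WT day 15 (45.8%) and 97 of 171 in Hira-null day 15 cells (56.7%). Peaks with their midpoint in an exon of a protein-coding gene made up 5.73%, 1.55%, 22.9% and 16.4% in the same order, so that exons took a larger share at day 15 in both genotypes. By annotation, the 107 arrays in exons of protein-coding genes lay under a peak in 33, 16, 15 and 32 cases in the WT day 0, Hira-null day 0, WT day 15 and Hira-null day 15 lists, and the 80 in no annotated gene in 14, 25, 11 and 49 cases. More unannotated arrays thus lay under a Hira-null than under a WT peak on both days.

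The annotated zinc finger genes were counted by a peak anywhere from 10 kb upstream of the start to 200 bp past the end. Of the 95 genes of the spans, 37 had a peak in WT day 0 (38.9%, 29.1 to 49.5, where 33.6% of all protein-coding genes did), 39 in Hira-null day 0 (41.1%, 31.1 to 51.6, with 18.9%), 16 in WT day 15 (16.8%, 9.94 to 25.9, with 37.1%) and 30 in Hira-null day 15 cells (31.6%, 22.4 to 41.9, with 13.3%). Among 533 zinc finger genes outside the spans, 244, 135, 211 and 108 had a peak (45.8%, 25.3%, 39.6% and 20.3%). The 43 genes with the KRAB pattern had a peak in 25, 28, 14 and 24 cases. Of the 115 other genes of the spans, 42, 31, 21 and 29 had a peak.

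On chromosome 4, 17 of 18 zinc finger genes had a WT day 0 peak, 16 a Hira-null day 0 peak, 10 a WT day 15 peak and 17 a Hira-null day 15 peak. On chromosome 13 the counts were 10, 13, 6 and 12 of 37. On chromosome 2 they were 10, 10, 0 and 0 of 39, so each peak at a zinc finger gene of that span was a day 0 peak. In all, 11 genes had a peak in every list, 11 had one in every list but WT day 15, and 46 had none.

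Gm13242 (chr4:145104787-145294344), which encodes 14 fingers with the KRAB pattern, had the most covered sequence in every list but WT day 15, with 46742 bp under 19 WT day 0 peaks, 40905 bp under 10 Hira-null day 0 peaks, 3395 bp under 2 WT day 15 peaks and 10653 bp under 5 Hira-null day 15 peaks. Its window spans 199.8 kb, the largest of the genes named here, and takes in Gm13225 and Gm13212, which also encode fingers with the KRAB pattern. Gm13225 had 3, 2, 1 and 1 peaks and Gm13212 had 7, 4, 1 and 2, and peaks in shared sequence are counted for each gene. Zfp600 (chr4:146124225-146166156, 17 fingers) had 8, 4, 1 and 2 peaks in the same order, covering 21715, 19562, 2462 and 5706 bp. Rex2 (chr4:145881315-145887868, 15 fingers) had 3, 2, 0 and 1 peaks with 5387, 4340, 0 and 2173 bp covered. Gm13138 had 8, 2, 0 and 3 peaks, Gm13139 had 7, 3, 2 and 2, and 2610305D13Rik had 13, 4, 1 and 2. The last of these overlaps Zfp534, which had 8, 0, 1 and 1 peaks, in part the same ones. WT day 0 cells thus had the most peaks at each of these genes. Gm13251 (chr4:145727747-145749016, 11 fingers) had 4, 0, 1 and 1 peaks, and its day 15 peaks covered 4655 bp in WT and 4895 bp in Hira-null cells. In these genes, the covered length was larger at day 0 than at day 15 in both genotypes, except that Gm13251 and Zfp534 had no Hira-null day 0 peak.

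On chromosome 13, Zfp808 (chr13:62231276-62274779, 22 fingers, KRAB) had 6, 6, 2 and 1 peaks in WT day 0, Hira-null day 0, WT day 15 and Hira-null day 15 cells, which covered 6495, 19744, 2022 and 2323 bp. 2410141K09Rik (chr13:66519050-66542067) had 6, 1, 0 and 1 peaks with 11778, 1481, 0 and 2335 bp covered, so WT day 0 cells stood above the other lists. Zfp934 (chr13:62618686-62621904, 11 fingers) had 1, 2, 1 and 1 peaks, and Gm17353 had 2, 1, 0 and 1. On chromosome 2, Gm14412 (chr2:177099225-177109012, 15 fingers, KRAB) had 5, 2, 0 and 0 peaks with 7927 and 5261 bp covered at day 0, and Gm14444 (chr2:174835742-174844749, 10 fingers, KRAB) had 3, 2, 0 and 0 with 4555 and 6223 bp. On chromosome 12, 5730507C01Rik had 1 Hira-null day 15 peak of 705 bp in its window and none in the other lists. The window of a zinc finger gene includes its promoter and introns, so these counts are not counts of fingers under a peak.

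The genes that act with KRAB zinc finger proteins, and the H3.3 chaperones, lie outside the spans. Of 23 such genes, 22 were found in the annotation, and 18 had a WT day 0 peak, 12 a Hira-null day 0 peak, 16 a WT day 15 peak and 10 a Hira-null day 15 peak, where 33.6%, 18.9%, 37.1% and 13.3% of all protein-coding genes did. The lower Hira-null counts thus went with lower shares over all genes. The genes below were picked from this list after their values were seen. Trim28, the corepressor, had 4, 1, 2 and 1 peaks and Setdb1, the methyltransferase, 2, 0, 1 and 0. Daxx had 3, 0, 1 and 1, and Atrx, its partner, 0, 2, 0 and 0. Of the HP1 genes, whose products bind methylated H3, Cbx1 had 8, 0, 7 and 1 peaks, Cbx3 had 4, 1, 5 and 5, and Cbx5 had 9, 1, 15 and 4. Hira-null cells had more peaks than WT cells at Atrx, Cabin1, Hira, Morc3 and Pphln1 at day 0 and at H3f3a at day 15. A peak of H3.3 is not a measure of expression.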

How the data were processed

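H3.3-HA ChIP-seq was performed in 4 conditions with 1 ChIP and 1 input library each (8 samples). The authors aligned paired-end reads to mm9 with Bowtie, removed duplicates and called peaks per ChIP library with MACS 1.4.2, and deposited BED lists whose score column is -10 times the log10 of the MACS p-value (50 to 3100). Use of the inputs in peak calling and the handling of multi-mapping reads are not given in the sources used here, the inputs were not used here, and no read counts per library were analysed.

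Peaks were assigned to spans by midpoint, with coordinates 1-based. Genes came from GENCODE M1 on NCBIM37. A zinc finger gene encoded at least 3 C2H2 matches, an array was a chain of at least 3 in-frame matches at most 252 bases apart, and peaks overlapped by at least 1 bp. Words of 31 bases were counted on both strands of the genome. Intervals are exact 95% Clopper-Pearson intervals for counting error. No test was run, because a condition had 1 library. Named genes were, per span and list, the 2 zinc finger genes with the most covered bases, plus Rex2 and Zfp600. Gm13225, Gm13212 and Zfp534 are given because they overlap named genes. Named peaks were the highest-scoring and widest per span and list, and the strongest region in all 4 lists. Members, spans and gene lists were chosen with earlier results of these data known. Alternatives covered score, list length, merging, overlap, borders, gene windows, gene definition and repeated sequence. Scripts were tested on simulated data and used Python 3.11.15, pandas 2.3.3, scipy 1.17.1 and pysam 0.24.0.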

Additional observations from a re-analysis of the deposited data

Results flagged for a closer look

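Several genotype or day differences had opposite signs in the 2 strata compared, and no such difference was tested, since each condition had 1 library. On chromosome 4, the Hira-null minus WT number of peaks was -111 at day 0 and 24 at day 15, and on chromosome 13 it was -13 and 23. The Hira-null minus WT number of arrays under a peak was -17 at day 0 and 15 at day 15 on chromosome 4, and -8 and 68 over all spans.

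The day 15 minus day 0 number of arrays under a peak was -16 in WT and 16 in Hira-null cells on chromosome 4, -12 and 7 on chromosome 13, and -25 and 51 over all spans. Over the whole genome the Hira-null list was the shorter of each day's pair, with 17706 against 22730 peaks at day 0 and 7332 against 27272 at day 15.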

How the results depend on the processing

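Of 156 values recomputed under alternatives, 96 moved by less than the limit set for them and 60 by more, and the cause of those moves was not tested beyond what each setting removes. Values follow the order WT day 0, Hira-null day 0, WT day 15, Hira-null day 15 unless named. With scores of at least 100, peaks in the spans numbered 206, 310 and 33 in the first 3 lists, covered lengths were 480.2 kb in WT day 0 and 47.4 kb in WT day 15, and median widths were 1693, 2261, 1313 and 1519 bp. The same setting left 22.9% of Hira-null day 0 peaks meeting a WT peak, 15.7% of Hira-null day 15 peaks meeting a WT peak, and 7 genes and 14 arrays under a WT day 15 peak. With the 7332 highest-scoring peaks of each list, peaks numbered 200, 224 and 17, covered 474.0, 730.1 and 25.4 kb and had median widths of 1721.5, 2635 and 1392 bp in the first 3 lists. Overlap was then 35.5% (WT by Hira-null) and 25.4% (Hira-null by WT) at day 0, 82.4% and 8.19% at day 15, 3.5% for WT day 0 by day 15, 16.5% for Hira-null day 0 by day 15 and 24% for Hira-null day 15 by day 0. Genes with a peak were 24 in Hira-null day 0 and 4 in WT day 15, and arrays 21 and 8. Merging peaks under 1 kb apart gave median widths of 1313 bp in WT and 2041 bp in Hira-null day 0. Requiring 50% of the peak covered gave 18% for Hira-null day 0 by WT, 17% for Hira-null day 15 by WT and 4.84% for Hira-null day 0 by day 15, and widening the other list by 1 kb gave 50.3% for WT day 0 by Hira-null. Defining zinc finger genes by symbol (36 genes) left 10, 10, 8 and 10 with a peak. Restricting to peaks with under 50% repeated words, an alternative chosen after seeing the data, as were all alternatives for arrays, left 107, 54, 41 and 32 peaks over 145.8, 134.0, 38.8 and 29.1 kb, a median width of 715.5 bp in Hira-null day 15, 11, 9, 3 and 5 genes and 5, 1, 1 and 5 arrays, and it turned the order of the genotypes for peaks and covered length on both days. Under that restriction WT also had more peaks than Hira-null cells in the rest of the genome on both days. Taking peaks that touch a span, gene bodies without flanks, 50% of the array covered or arrays of at least 5 fingers moved no value past its limit. No paired analysis was possible because each condition had 1 ChIP library and no result came from a test, and leaving out a replicate was not possible for the same reason.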
